A study of Mus musculus with 6 samples.

Results

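Retinoic acid is a small lipid derived from vitamin A that tells cells of the embryonic hindbrain and spinal cord where they lie along the body axis, and it is added to stem cell cultures to turn them into spinal motor neurons. It is made from retinal by retinaldehyde dehydrogenases such as Aldh1a2, held in the cytosol by the binding proteins Crabp1 and Crabp2, and destroyed by the cytochromes Cyp26a1 and Cyp26b1. In the nucleus it binds the receptors Rara, Rarb and Rarg, which pair with a retinoid X receptor such as Rxra and sit on repeated hexamer sequences in the DNA of their target genes. The genes described here are these 9, chosen by name for their place in the pathway, with earlier results of these data known. Rows for 8 of the 9 were found among the 19613 genes of the array table, and the expression of Rarb was not analysed here.

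The 6 arrays form a single group and carry the replicate numbers 2, 4, 5, 6, 7 and 8. Each array measured RNA from embryoid bodies grown from the mouse embryonic stem cell line HBG3 (spelled HGB3 in the methods). In this line a green fluorescent protein reports the activity of Hb9 (Mnx1), a gene of motor neurons. The embryoid bodies had been induced with retinoic acid and a hedgehog pathway agonist, and were then exposed for a day to blood fluid from a transgenic Huntington's disease model. The donors were presymptomatic male carriers of the strain B6CBA-Tg(HDexon1)62Gpb/3J, whose transgene holds the first exon of human huntingtin; the labels call the fluid plasma, and the series title and the methods call it serum. The methods name the medium of the exposure step without retinoic acid. Embryoid bodies hold several cell types, of which motor neurons are a minority, and the whole body was profiled. In such a mixture, fewer cells that use a gene and less RNA per cell cannot be told apart. No control arrays were analysed here, so the values give levels under this serum and their spread, and they say nothing of a response to it. The study speaks of separate serum samples from this model, but neither it nor the labels say whether these came from separate mice or met separate cultures, so a p-value measures the spread between these 6 arrays, which may be technical.

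The median intensity of an array lay between 296 and 311. The average Pearson's r of an array with the other 5, across genes, lay between 0.992 and 0.995, and it was lowest in replicate 8. All 6 motor neuron markers (Mnx1, Isl1, Isl2, Lhx3, Chat and Slc5a7) and all 4 general neuron markers were above the background defined below. Of the other cell types, 2 of 3 markers of motor neuron progenitors, 2 of 4 mesoderm markers, 2 of 4 endoderm markers, 3 of 4 glial markers, 1 of 4 pluripotency markers and 0 of 3 measured blood markers were above it, as were 62.6% of all genes. The progenitor marker below it was Pax6. The 2 endoderm markers were Gata4 and Foxa2, of which Foxa2 also marks floor plate.

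Of the genes searched, Rarb and Cyp26a1 carried the best known retinoic acid response element close to their start of transcription. This element is a direct repeat of hexamer half-sites with 5 bases between them (DR5). The consensus half-site AGGTCA was searched for on both strands, from 250 bases before to 50 bases after each start in RefSeq (GRCm38.p6). The variant AGTTCA was accepted in its place on either side of the gap. So was GGTTCA, as in the element of Rarb, so that the match in Rarb was built into the search. The match in Cyp26a1 rested on AGTTCA in the same way, as both of its half-sites have that form and neither is the consensus. The last form accepted was GGGTCA, and any pair of these forms counted. Among the 13 promoters that the table holds for 8 of the 9 genes, 1 of Cyp26a1 and 1 of Rarb held it, and 0.0974% of all 32851 promoters did. Crabp2 was not in this table. The same search with 2 bases between half-sites (DR2) gave 0 matches among the 13 promoters and 0.268% among all. Both DR5 elements are shown because they mark the genes of the group that have such a repeat in this window, and the half-sites are in capitals.
Rarb: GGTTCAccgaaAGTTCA
Cyp26a1: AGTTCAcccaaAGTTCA
The element of Rarb lay on the strand of the gene, 53 to 37 bases before the start (chr14:16575513-16575529, GRCm38.p6, gene on the minus strand). That of Cyp26a1 lay on the strand opposite to the gene, 32 to 16 bases before the start (chr19:37697776-37697792, gene on the plus strand). The 250 bases before the start of Cyp26a1 (chr19:37697558-37697807, plus strand) are printed with the half-sites in capitals, where they read as the reverse complement.
Cyp26a1: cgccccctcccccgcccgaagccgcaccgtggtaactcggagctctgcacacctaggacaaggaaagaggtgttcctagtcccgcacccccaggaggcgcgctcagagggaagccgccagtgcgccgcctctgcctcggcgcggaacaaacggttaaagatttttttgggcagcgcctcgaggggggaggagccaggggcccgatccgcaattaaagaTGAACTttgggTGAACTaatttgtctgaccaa
A match says only that these letters stand in the window, and the array values do not show whether a receptor is bound there. Of the 31 genes with a DR5 match, 9 had a row in the array table, and 5 of them were above background, 3 were below it and 1 was neither, where 64.3% of the 13453 table genes with a promoter were above it. Their median margin over background was 0.67 on the log2 scale, against 0.77 for all genes.

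Background was taken from the 1032 olfactory receptor (Olfr) genes, which are used in olfactory neurons and are largely silent elsewhere. The background level of an array was the 95th percentile of the log2 intensities of its Olfr genes, and it ran from 7.26 in replicate 8 to 7.60 in replicate 5. The margin of a gene is its log2 intensity minus the background level of the same array. It was tested against 0 with limma over all 19613 genes, with Benjamini-Hochberg adjustment, and a gene was called above or below background at an adjusted p under 0.05. By this rule 62.6% of all genes were above background, 32.9% were below and 4.51% were neither, and of the Olfr genes themselves 3.29% were above, 93% were below and 3.68% were neither. Counted without a model, 62% of all genes and 2.91% of Olfr genes were above the background level on each of the 6 arrays. Of the 8 retinoic acid genes 6 were above background, 1 was below and 1 was neither, so the count above is near the share of all genes. Their median margin was 1.38, against 0.77 over all genes and -1.95 over Olfr genes. Probes differ in affinity, so a margin ranks intensities within the array and not amounts of transcript, and the same holds for every order of genes given below.

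**Figure D1:**
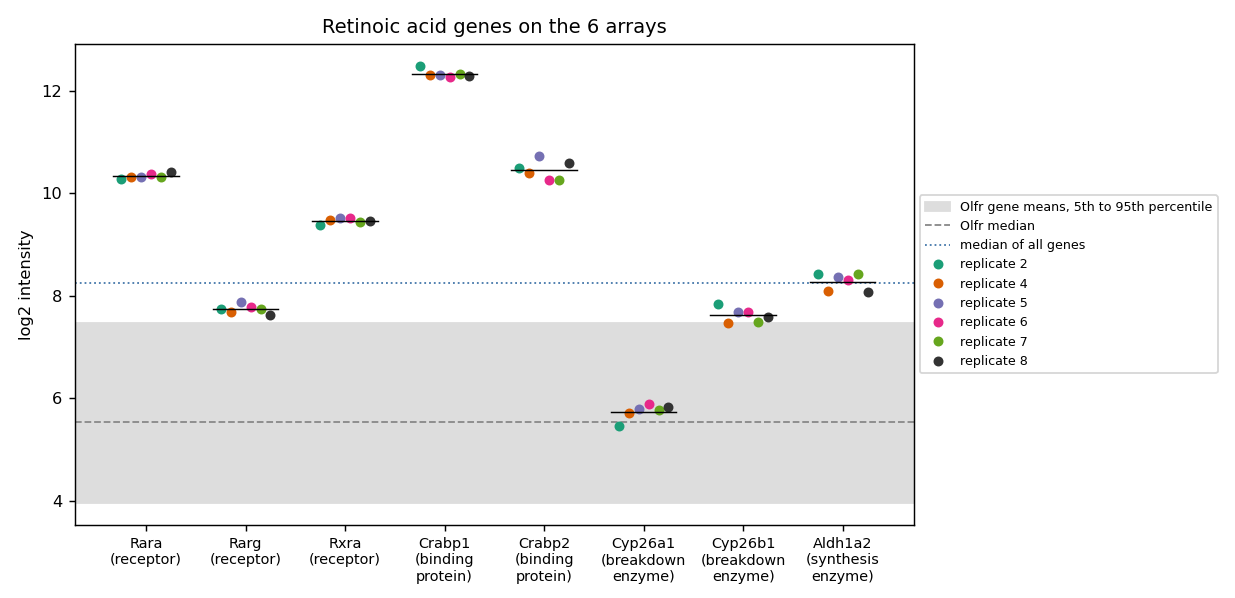
Log2 intensity (vertical axis) of the 8 measured retinoic acid genes on each of the 6 arrays, 1 point per array, with the mean as a black line; the grey band spans the 5th to the 95th percentile of the Olfr gene means, from 3.96 to 7.47. Cyp26a1 lies inside the band on every array, Cyp26b1 and Rarg lie at its upper edge, and Rara, Rxra, Crabp1 and Crabp2 lie well above it.

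Both Rara and Rxra were clearly detected, and their levels varied little over the 6 arrays. Rara had a log2 intensity of 10.28, 10.31, 10.32, 10.37, 10.31 and 10.42 in replicates 2, 4, 5, 6, 7 and 8. The highest array was 1.10-fold over the lowest, and the mean of 10.34 ± 0.051 (SD, n = 6) stood above 88.6% of all genes and 99.9% of Olfr genes. The margin of Rara was 2.85 with an SE of 0.062 (limma, adjusted p 1.26e-12), and it was above background on 6 of 6 arrays.

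Rxra is one of the retinoid X receptors with which retinoic acid receptors pair on DNA. The log2 intensity of Rxra was 9.38, 9.47, 9.52, 9.51, 9.43 and 9.46 in the same order, with a mean of 9.46 ± 0.050 (SD, n = 6), above 74.8% of all genes. Its margin was 1.97 with an SE of 0.054 (limma, adjusted p 8.21e-12), with 1.10-fold between its highest and lowest array. The SDs of Rara and Rxra were at the 37.2nd and the 24.5th percentile among genes above background in the same twentieth of mean level. Against the mean of the progenitor markers, which ran from 8.70 to 8.90, r of Rxra was 0.94 (exact permutation p 0.00278, adjusted p 0.222), with rho 0.94 (exact permutation p 0.0167) and r 0.80 once the 2 arrays most distant in that list were left out. The part of progenitor cells in the level of Rxra was not tested.

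Rarg, the receptor that early embryonic cells and skin use most, was at the edge of detection. Its log2 intensity was 7.74, 7.68, 7.88, 7.77, 7.74 and 7.61 in replicates 2, 4, 5, 6, 7 and 8, with a mean of 7.74 ± 0.088 (SD, n = 6), above 40.0% of all genes and 97.5% of Olfr genes. The margin was 0.25 with an SE of 0.045 (limma, adjusted p 0.000249), and it was positive on all 6 arrays, from 0.16 to 0.35. This call depended on how strict the background was. With the 99th percentile of Olfr genes as the background level the margin of Rarg was -0.63, so the gene lay below the brightest hundredth of Olfr genes.

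In rank, the level of Rarg had the same order over the arrays as their background level. Against the Olfr 95th percentile of each array, Pearson's r was 0.88 (exact permutation p 0.00972, adjusted p 0.259) and Spearman's rho was 1 (exact permutation p 0.00278), and r was 0.57 once the 2 arrays most distant from the median percentile were left out. Against the mean of the mesoderm markers r was 0.98 (exact permutation p 0.00556, adjusted p 0.222), with rho 0.83 (exact permutation p 0.0583), and r was 0.93 without the 2 farthest arrays. That list, of which T and Tcf15 were above background and Tbx6 and Meox1 were not, had means from 7.67 to 8.02 over the arrays. Against the mean of the pluripotency markers, of which only Nanog was above background, r was 0.86 (exact permutation p 0.0375, adjusted p 0.472). For this list rho was 0.89 (exact permutation p 0.0333), and r was 0.81 without the 2 farthest arrays. These are 3 of 80 relations of the 8 genes with the array background and with the marker lists, of which 0 passed an adjusted p of 0.05 and 8 had an unadjusted p under 0.05 by the exact permutation test. With 6 arrays a single relation among 80 can reach no adjusted p under 0.111. The part of background and of these other cells in the level of Rarg was not tested.

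The binding proteins gave the highest mean margins of the group, though Crabp2 was close to Rara and lay below it in replicates 6 and 7. Crabp1, which carries retinoic acid in the cytosol and brings it to the degrading enzymes, had one of the highest intensities on the array. Its log2 intensity was 12.48, 12.31, 12.30, 12.26, 12.32 and 12.28 in replicates 2, 4, 5, 6, 7 and 8, and its mean of 12.32 ± 0.081 (SD, n = 6) stood above 99.2% of all genes. The margin was 4.83 with an SE of 0.060 (limma, adjusted p 4.09e-14). Replicate 2 was higher than the others, and its excess over the lowest array, replicate 6, was 1.17-fold. Without replicate 2 the SD of Crabp1 was 0.024. Against the mean of the progenitor markers its r was -0.74 (exact permutation p 0.0347, adjusted p 0.472), with rho -0.83 (exact permutation p 0.0583), and r was 0.0082 without the 2 farthest arrays, so that relation rests on them.

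Crabp2, which delivers retinoic acid to its receptors in the nucleus, varied more between arrays than nearly every gene of like intensity. The log2 intensity of Crabp2 was 10.50 in replicate 2, 10.40 in replicate 4, 10.73 in replicate 5, 10.26 in replicate 6, 10.25 in replicate 7 and 10.59 in replicate 8. Replicates 6 and 7 were lowest and replicate 5 was highest, by 1.40-fold over replicate 7. The mean was 10.45 ± 0.19 (SD, n = 6), above 89.9% of all genes, with a margin of 2.97 and an SE of 0.084 (limma, adjusted p 1.05e-11). The SD lay at the 98.2nd percentile among genes above background in its twentieth of mean level, where the median SD was 0.059. It stayed between 0.15 and 0.21 when single arrays were left out, so no 1 array accounts for it.

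**Figure D2:**
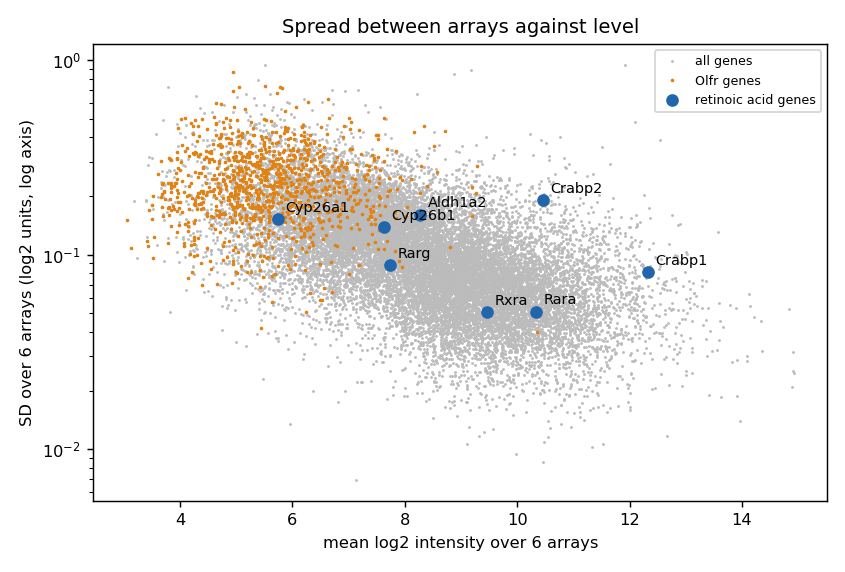
SD over the 6 arrays (vertical, log axis) against mean log2 intensity (horizontal), with all genes in grey, Olfr genes in orange and the 8 retinoic acid genes in blue. Crabp2, at an SD of 0.19, lies above most genes of its level, while Rara and Rxra, at 0.051 and 0.050, lie within them.

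Of the enzymes that break down retinoic acid, neither Cyp26a1 nor Cyp26b1 was called above background by the rule given above. Cyp26a1, an enzyme that cells make in direct response to retinoic acid, had a log2 intensity of 5.46, 5.72, 5.78, 5.89, 5.77 and 5.84 in replicates 2, 4, 5, 6, 7 and 8. All 6 arrays were below their background level, with margins from -2.02 to -1.43 and a mean margin of -1.75 with an SE of 0.069 (limma, adjusted p 1.99e-10). Its mean of 5.74 ± 0.15 (SD, n = 6) was above 57.7% of Olfr genes and 8.29% of all genes, close to the Olfr median of 5.54. The gene whose start carries the DR5 element printed above thus lay within the middle of the Olfr genes on these arrays.

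Cyp26b1, the related enzyme that limits retinoic acid in hindbrain and limb, lay at the background level. The values were 7.84, 7.47, 7.68, 7.68, 7.49 and 7.58 in replicates 2, 4, 5, 6, 7 and 8, on the log2 intensity scale, and the mean was 7.62 ± 0.14 (SD, n = 6). The margin was 0.14 with an SE of 0.063 (limma, adjusted p 0.0577), positive on 5 of 6 arrays and -0.087 in replicate 7. Without replicate 7 the margin was 0.18 and Cyp26b1 was called above background, which brought the count to 7 of 8 genes. The call was also made with 1 background level for all arrays, at a margin of 0.16, and with vomeronasal receptor genes as background, at 0.82. With the 99th percentile of Olfr genes the margin was -0.74.

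Aldh1a2, the enzyme that makes most of the retinoic acid of the early embryo and that some spinal motor neurons of limb levels also express, was detected at the middle of the range of all genes. Its log2 intensity was 8.42, 8.09, 8.36, 8.31, 8.42 and 8.06 in replicates 2, 4, 5, 6, 7 and 8. Replicates 4 and 8 were lower than the other 4 arrays, which lay between 8.31 and 8.42, with 1.28-fold between the highest and the lowest array. The mean was 8.28 ± 0.16 (SD, n = 6), above 50.4% of all genes and 98.8% of Olfr genes. Its margin was 0.79 with an SE of 0.049 (limma, adjusted p 1.48e-08), positive on all 6 arrays. With the 99th percentile of Olfr genes as background it was -0.093.

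The SD of Aldh1a2 was at the 86.9th percentile of its twentieth of mean level. Its relations with markers of other cells and with the array background did not pass adjustment. Against the mean of the mesoderm markers r was 0.82 (exact permutation p 0.0472, adjusted p 0.472), with rho 0.60 (exact permutation p 0.242), and r was 0.85 without the 2 farthest arrays. Against the mean of the endoderm markers, which ran from 7.64 to 7.91 over the arrays with Sox17 and Afp not above background, r was 0.79 (exact permutation p 0.0347, adjusted p 0.472), with rho 0.77 (exact permutation p 0.103) and r 0.50 without the 2 farthest arrays. Against the Olfr 95th percentile r was 0.81 (exact permutation p 0.0431, adjusted p 0.472), with rho 0.54 (exact permutation p 0.297), and it was -0.51 without the 2 farthest arrays, so that relation rests on them. Their part in the level of Aldh1a2 was not tested.

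The rest of the pathway was read from 5 lists with 44 genes, all of which had a row. The lists were also chosen with earlier results of these data known. Above background were 32 of 44, below it were 11, and 1 was neither, with a median margin of 1.36; of all genes 62.6% were above, with a median of 0.77. The 2 other retinoid X receptors were above background, with margins of 1.32 for Rxrb and 1.66 for Rxrg (SE 0.054 and 0.071).

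All 10 coregulators, the proteins that receptors recruit to open or close chromatin, were above background, beside 62.6% of all genes. Their median margin was 3.01. The highest were the acetyltransferase Ep300 at 3.84 and the corepressor Ncor1 at 3.82, and the lowest were Nrip1 at 1.84 and the acetyltransferase Kat2b at 0.61.

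Of the 7 genes for uptake and carriers 4 were above background and 3 were below, beside 62.6% and 32.9% of all genes. Their median margin was 0.28. Fabp5, a fatty acid carrier that can also bind retinoic acid, had a margin of 2.65 (SE 0.074). Stra6, the membrane protein through which cells take up retinol, had 2.04 (SE 0.048). At the other end Lrat, the enzyme that stores retinol as an ester, had -0.93 (SE 0.077), and Rbp7 had -1.01 (SE 0.054).

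The other 13 enzymes of retinoid metabolism split in both directions, with 5 above background, 7 below and 1 neither, and a median margin of -0.19. Of all genes 62.6% were above and 32.9% were below. The alcohol dehydrogenase Adh5, a broadly used enzyme that also handles formaldehyde, had a margin of 3.16 (SE 0.078), and the retinal reductase Rdh11 had 1.45 (SE 0.067). The sister enzymes of Aldh1a2 were not above background. Aldh1a1 had a margin of -1.39 (SE 0.045), and Aldh1a3 had -0.085 (SE 0.046; limma, adjusted p 0.0942) and was above background on 1 of 6 arrays. Aldh8a1, which acts on the 9-cis form of retinal, had the lowest margin at -1.40 (SE 0.047). Of genes chosen after their values were seen, Rdh10, which makes retinal for Aldh1a2, had 0.86 (SE 0.053). Dhrs3, which turns retinal back into retinol, had 0.92 (SE 0.069). The third enzyme of the Cyp26 family, Cyp26c1, was just above background at 0.13 (SE 0.046; limma, adjusted p 0.0181).

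Genes known to be induced by retinoic acid were above background in 11 of 12 cases, with a median margin of 2.55, beside 62.6% of all genes. Cyp26a1, also such a gene, was counted among the members and lay below background. The homeobox genes Meis2 and Meis1 had the highest margins, at 4.63 (SE 0.061) and 3.93 (SE 0.071). Tgm2, a transglutaminase, had 0.46 (SE 0.060). Stra8, which acts in germ cells as they enter meiosis, was below background at -0.56 (SE 0.051). Some genes of this list are also used in spinal tissue for other reasons, so the levels of the list do not measure retinoic acid.

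**Figure D3:**
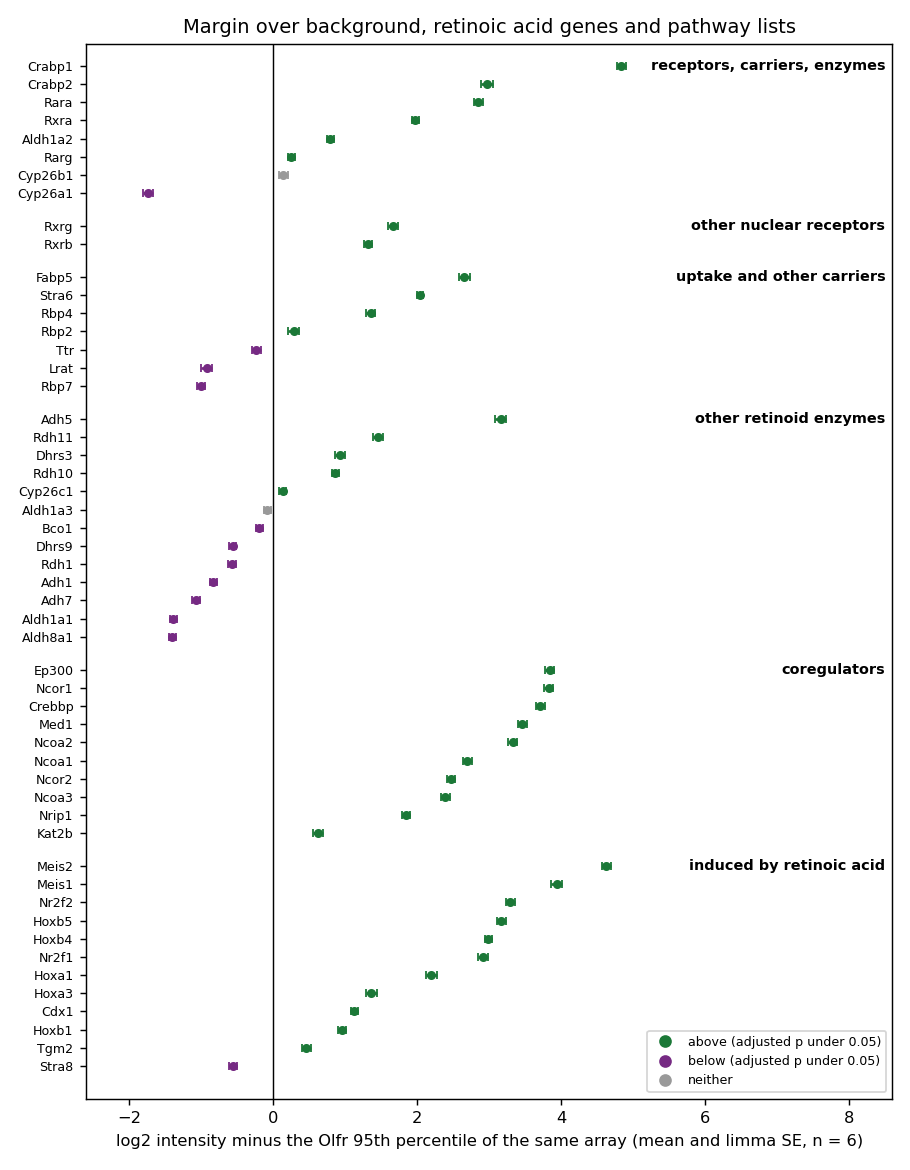
Margin over background (log2 intensity minus the Olfr 95th percentile of the same array, horizontal axis) of the 8 retinoic acid genes and of the 44 genes of the 5 pathway lists; points are means and bars are limma SEs over 6 arrays. All 10 coregulators and 11 of 12 induced genes lie to the right of 0, whereas 7 of the 13 other enzymes are below background, as is Cyp26a1.

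The last question was which of the 8 genes varied together between the arrays. Among the 28 pairs Pearson's r ran from -0.98 to 0.77 with a median of 0.056, and 15 were positive and 13 negative. By the exact permutation test 0 of 28 pairs passed an adjusted p of 0.05, and 2 had an unadjusted p under 0.05 by r and 3 by rho. By rho a single pair among 28 could not pass, since its lowest possible p by this test is 0.00278 before adjustment.

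On the values as deposited the strongest relation was between Crabp1 and Cyp26a1. Pearson's r was -0.98 (exact permutation p 0.00417, adjusted p 0.117), Spearman's rho was -0.94 (exact permutation p 0.0167, adjusted p 0.233), and r was -0.70 once the 2 arrays most distant from the median of Crabp1 were left out. Replicate 2 had the highest Crabp1, 0.16 above the mean of the gene on the log2 scale, and the lowest Cyp26a1, with a deviation of -0.29 from its mean. Without replicate 2, r was -0.88 (exact permutation p 0.0417, n = 5). It was -0.87 with each array centred on its median (exact permutation p 0.0583), and -0.82 after quantile normalization (exact permutation p 0.0722). The pair with the lowest p changed under both of these scalings. It was Rxra and Cyp26a1 with centred arrays, at r 0.83 (exact permutation p 0.0306, adjusted p 0.642), and Rara and Cyp26a1 after quantile normalization, at r 0.94 (exact permutation p 0.00278, adjusted p 0.0778). Cyp26a1 was below background on every array that enters these values.

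Crabp1 also ran against Rxra, with r -0.82 (exact permutation p 0.0292, adjusted p 0.408), rho -0.71 (exact permutation p 0.136) and r -0.83 once the 2 arrays most distant from the median of Rxra were left out. Without replicate 2 it was -0.52 (exact permutation p 0.383, n = 5). Rara and Cyp26a1 had rho 0.89 (exact permutation p 0.0333, adjusted p 0.311) and r 0.75 (exact permutation p 0.0944), and r was 0.97 once the 2 arrays most distant from the median of Rara were left out. Rara and Crabp1 had rho -0.94 (exact permutation p 0.0167, adjusted p 0.233) with r -0.70 (exact permutation p 0.135), and r was -0.99 without those 2 arrays.

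**Figure D4:**
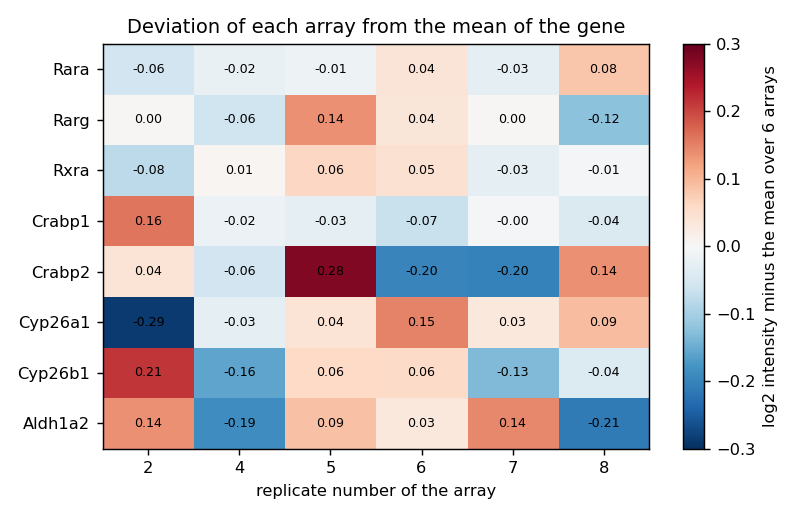
Deviation of each array from the mean of the gene over 6 arrays (log2 units, colour and printed value), with genes in rows and replicate numbers in columns. Replicate 2 is high in Crabp1, Cyp26b1 and Aldh1a2 and low in Cyp26a1, and Crabp2 is high in replicates 5 and 8 and low in replicates 6 and 7.

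For the 3 genes above background with the largest SD, the genes with the most similar pattern over the 6 arrays were listed among the 12277 others above background, as a description. Crabp2 was followed most closely by Trio, Cpsf1 and Leng8, with r of 0.996, 0.995 and 0.992, and 290 genes, or 2.36%, had an r over 0.9. Aldh1a2 was followed by Tpd52l1, Klk12 and Hivep3, with r of 0.998, 0.992 and 0.99, and 134 genes, or 1.09%, had an r over 0.9. Among the closest to Rarg were Kcna1 and Rasgrp2, with r of 0.999 and 0.995, and 371 genes, or 3.02%, had an r over 0.9. The genes named for Aldh1a2 and Rarg had mean log2 intensities between 7.60 and 7.84, near the background level. No p is given for these likenesses, since they were picked from many genes.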

How the data were processed

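RNA of embryoid bodies was hybridized by the authors to 6 Affymetrix mouse exon arrays. The deposited intensities are linear, 1 per gene and array; per the methods the authors made them by RMA (Robust Multi-array Averaging) in Aroma Affymetrix, averaging the exons of each annotated gene, and the labels also name Affymetrix Expression Console. The methods screened the arrays of each batch of embryoid bodies together for outliers. The batch of each array, which arrays entered RMA together and the genome build are not given in the sources used here. The methods also describe a later correction for batch by motor neuron genes, which gives log ratios; the deposited values are not on that scale. The table held 0 columns of other samples. Genes sharing signal with near-identical copies were not separated.

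Intensities were taken to log2 with no pseudocount. limma 3.58.1 (R 4.3.3) tested margins over the Olfr 95th percentile of each array, intercept only, two-sided, and was tested on simulated data. Correlations used two-sided exact permutation over all 720 pairings, with Benjamini-Hochberg adjustment. Named genes were all measured members, the 2 highest and 2 lowest margins of each pathway list, genes passing in neither direction, and the 3 closest patterns of the 3 members with the largest SD. A few genes that fell under these rules are not reported here. Members and lists were chosen with earlier results of these data known. Marker and array relations were added after the values were seen. Synonyms served for Bco1 and Map2; promoters came from RefSeq. Precision is limited by the number of arrays. Alternatives were another background, scaling, pseudocount 16 and leaving out arrays.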

Additional observations from a re-analysis of the deposited data

Results flagged for a closer look

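Dixon's ratio, the distance of the outermost value to the next one divided by the range of the 6 values, was computed for each of the 8 genes. The ratio passed its critical value at the 95% level for 1 gene, where chance picks about 1 in 20. Crabp1 in replicate 2 had a ratio of 0.73, with a log2 intensity of 12.48 against 12.26 to 12.32 on the other arrays. On the same array Cyp26a1 was the lowest of 6 with a ratio of 0.60, just inside the critical value, and Cyp26b1 was the highest with 0.42. The median intensity of replicate 2 was 306 and lay within the range of the others, and its average r with the other arrays, 0.995, was the highest of the 6.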

How the results depend on the processing

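The count of genes above background, 6 of 8, was 4 with the 99th percentile of Olfr genes, 7 with vomeronasal genes, 7 with 1 background level for all arrays, and 6 to 7 when single arrays were left out. Rarg, Cyp26b1 and Aldh1a2 turned to negative margins under the 99th percentile, at -0.63, -0.74 and -0.093. The pathway count of 32 became 25 with the 99th percentile, 35 with vomeronasal genes, and 31 to 32 with an array left out. No pair of genes passed an adjusted p of 0.05 under any of the 10 alternatives (0 each), among which the lowest adjusted p was 0.0778, for Rara and Cyp26a1 after quantile normalization. With an array left out, a single pair among 28 can reach no adjusted p under 0.233 by the exact permutation test. A single pair cannot pass by rho either, so the counts of 0 in these settings decide nothing about a single pair. A pseudocount of 16 raised the level of Cyp26a1 to 6.12 and that of Rarg to 7.84. The SD fell to 0.024 for Crabp1 and 0.066 for Cyp26a1 without replicate 2, and to 0.046 for Rarg after quantile normalization. The cause was not tested. No paired analysis was possible because there is 1 group.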

Other observations

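Rbp2, a retinol binding protein of the gut, was picked after its values were seen, for an SD of 0.33 that lay at the 99.3rd percentile of its twentieth of mean level. Its log2 intensity was 7.58, 7.45 and 7.40 in replicates 2, 4 and 8 and 8.06, 8.11 and 8.02 in replicates 5, 6 and 7. The background level of the arrays was 7.48, 7.42 and 7.26 in the first 3 and 7.60, 7.58 and 7.58 in the others. Its part in the values of Rbp2 was not tested. Lrat, below background, had 5.88 in replicate 8 against 6.57 to 6.79 on the other arrays.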
